A study of Mus musculus with 12 samples.

Results

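Mephedrone alone was compared with saline in anterior striata of male adolescent mice of the outbred Swiss CD-1 stock. The 3 arrays whose source label names mephedrone were set against the 3 whose label names saline, which is 6 of the 12 arrays in the series. The other 6 arrays hold 3 of ethanol and 3 of mephedrone given with ethanol, called the combination here. All groups went through the same 10-day conditioned place preference procedure, a test of reward that pairs a drug with a place, the drug being given here 15 minutes ahead of that place. Saline was the vehicle control, and no group without the procedure was analysed here. The labels give no dose, no hour of collection and no array batch, and they do not say whether an array holds 1 animal or a pool. The p-values therefore measure the spread between these arrays, which may be technical.

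Mephedrone is a synthetic cathinone, a stimulant that acts on the transporters of dopamine and serotonin and raises the extracellular level of both. The striatum receives dense dopamine input and consists mostly of projection neurons that carry either D1 or D2 receptors. D1 neurons make dynorphin and substance P, and D2 neurons make enkephalin. Stimulants given acutely are known to induce immediate early genes there, and many brain regions, the striatum among them, run a local circadian clock that dopamine signalling can shift.

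Each array gave values for 28853 probe sets. A value here is a log2 signal minus the median of that probe set over the 12 arrays, so a value of 0 is the middle array, and levels of different genes cannot be compared. A difference is the mean of the mephedrone arrays minus the mean of the saline arrays on that log2 scale. Differences were tested with limma, and a probe set was called at an adjusted p under 0.05. Genes were named from 21789 probe sets with 1 symbol, which stand for 19938 genes. For gene lists, probe sets of 1 symbol were averaged first.

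The SD of the values over all probe sets lay between 0.068 and 0.102 in the 6 arrays. The tissue label was set against striatal markers by signal class, which is all that the centred values keep of a level. All 11 measured probe sets of pan-striatal projection neuron markers (among them Ppp1r1b, Pde10a and Rgs9), 8 of 8 for D1 neurons and 7 of 7 for D2 neurons came from the brighter of 2 signal classes, log2 signals from 8 to 16. That class held 51.2% of all probe sets with 1 symbol, 2 of 10 for the choroid plexus and 0 of 5 for blood cells, but also 10 of 12 for cortical excitatory neurons and 12 of 12 each for astrocytes and oligodendrocytes. The classes thus show that no measured defining marker of striatal projection neurons was in the dimmer class, and they do not separate striatum from other brain tissue. The mean of the pan-striatal list lay between -0.02 and 0.04 in all 6 arrays. Markers of 2 neighbouring tissues set arrays apart. Those of choroid plexus, which secretes cerebrospinal fluid, averaged 0.87 in saline replicate 2 and 0.49 in mephedrone replicate 1, against -0.18 to -0.07 in the other 4 arrays. Markers of cortical excitatory neurons had a mean of 0.34 in saline replicate 2 and 0.34 in mephedrone replicate 2, against -0.35 in saline replicate 1. Results on gene lists are therefore given also without saline replicate 2 and mephedrone replicate 1, called the reduced set. That set leaves out both arrays high for choroid plexus. It keeps mephedrone replicate 2 and saline replicate 1, so it does not balance the cortical markers. On it, with fewer arrays, 590 genes were higher and 234 lower at an unadjusted p under 0.05, against 1140 and 301 on the full set, and the median over all genes was 0.009.

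**Figure D1:**
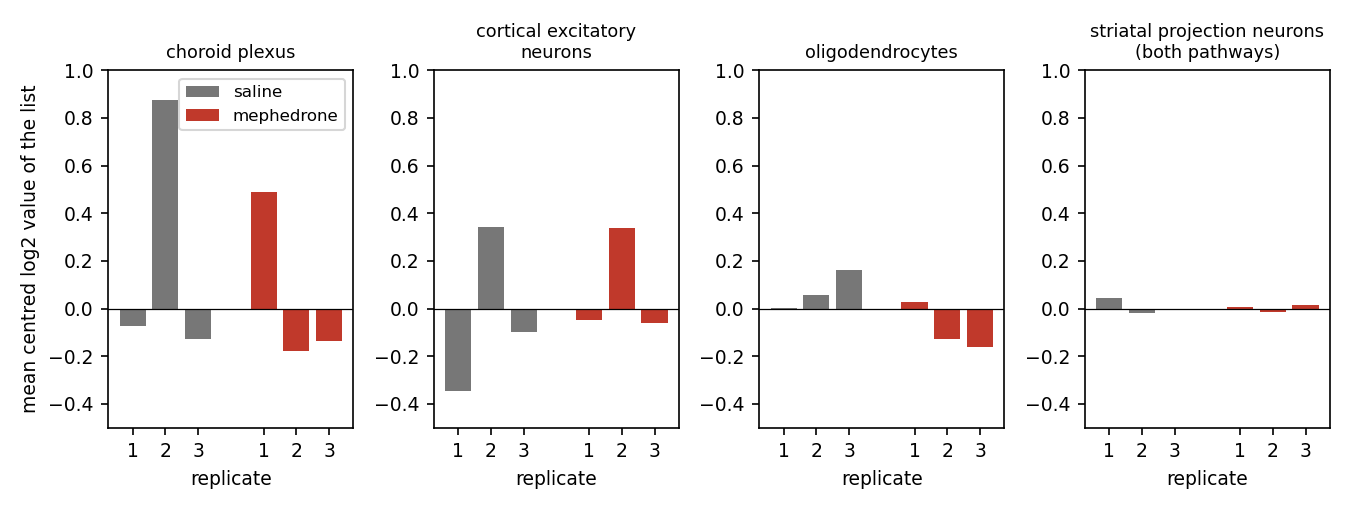
Mean centred log2 value of 4 cell type marker lists in each of the 3 saline and 3 mephedrone arrays (bars, 1 per array). Saline replicate 2 (0.87) and mephedrone replicate 1 (0.49) stand apart for choroid plexus, while the pan-striatal list stays between -0.02 and 0.04.

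No probe set was called. Of 28853, 0 passed in either direction by limma, with a smallest adjusted p of 0.0755. At an unadjusted p under 0.05 there were 1441 higher (4.99%) and 713 lower (2.47%), and with at least a 1.5-fold difference as well there were 8 higher (0.0277%) and 3 lower (0.0104%).  All values below are therefore those of genes that did not pass, unless another comparison is named. The count depended on arrays outside the comparison, which enter the estimate of the spread: without ethanol replicate 1, 9 probe sets passed, and without that array and combination replicate 3, 14 passed, 7 of them higher and 7 lower.

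Most differences were small. Over all 19938 genes the median difference was 0.008, and its percentiles 5 and 95 were -0.09 and 0.13. A total of 46 genes were higher by at least 0.3 and 14 were lower by at least 0.3. At an unadjusted p under 0.05, probe sets with 1 symbol were mostly higher, 1272 against 381 lower, so that 77.0% were higher. In the brighter signal class 82.8% were higher, in the dimmer class 59.1%, and among probe sets without a single symbol 33.7%. These shares moved with scaling: after quantile normalization of the deposited values 54.6% of all such probe sets were higher, against 66.9% as deposited, and for probe sets with 1 symbol the share was 64.1%. In the dimmer class that scaling left 45.1% higher.

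The genes that led the comparison included 3 of the circadian clock (Ciart, Per3 and Arntl) and Nfu1 and Chchd4 of the mitochondria. The naming rule took probe sets with a difference of at least 0.3 in size and no overlap between the 3 mephedrone and 3 saline arrays, in the order of unadjusted p. As background, 8.92% of all probe sets had all mephedrone arrays above all saline arrays and 6.17% had them all below. Of the genes that met the rule, 30 could be named as higher, of which 14 were taken, and 4 could be named as lower. The direction of these 18 was the same under each of the 22 alternative settings that were run. That sameness was largely fixed by the rule, since leaving out or weighting arrays cannot reverse groups that do not overlap.

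Nfu1, which carries iron-sulfur clusters to mitochondrial enzymes, had the largest difference of the named genes. Its values were -0.52, -0.51 and -0.54 with saline and 0.29, 0.26 and 0.26 with mephedrone. The arrays of each group lay close together and far from the other group. The difference was 0.79 (SE 0.097, 1.73-fold, adjusted p = 0.0755). The ethanol arrays, at 0.007, -0.195 and -0.246, lay between both groups, with a mean 0.376 above that of saline. A second probe set of Nfu1, in the dimmer class, had a difference of 0.14 (SE 0.083, adjusted p = 0.764) with overlapping groups, so the 2 probe sets disagree in size. Nfu1 passed under 7 of 22 settings, among them a fit on the 6 arrays alone (adjusted p = 0.000669), and its adjusted p ranged up to 0.816.

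Ciart, a transcriptional repressor of the clock, had the second smallest p. On the probe set with the smaller p its values were -0.20, -0.29 and -0.42 with saline and 0.19, 0.41 and 0.48 with mephedrone, so that the groups did not overlap. The difference was 0.66 (SE 0.085, 1.58-fold, adjusted p = 0.0755). Its other probe set gave 0.57 (SE 0.121, adjusted p = 0.311), also without overlap. Ciart passed under 4 of 22 settings, with an adjusted p between 0.0131 and 0.462.

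Gpx6, a glutathione peroxidase, had values of -0.01, -0.27 and 0.14 with saline against 0.50, 0.58 and 0.85 with mephedrone. All mephedrone arrays were higher, with a wider spread than for Nfu1. The difference was 0.69 (SE 0.145, 1.61-fold, adjusted p = 0.311), from a probe set of the dimmer class.

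The other 11 named as higher had differences from 0.31 to 0.38. Per3, a period gene of the clock, had values of -0.17, -0.06 and -0.31 with saline and 0.19, 0.18 and 0.11 with mephedrone, a difference of 0.34 (SE 0.062, adjusted p = 0.258). Chchd4, which imports and oxidises proteins in the mitochondrial intermembrane space, differed by 0.34 (SE 0.083, adjusted p = 0.364), with 1 saline array at -0.02 and 1 mephedrone array at 0.00, so its groups were barely apart. Bcap29, a protein of the endoplasmic reticulum membrane, differed by 0.31 (SE 0.050, adjusted p = 0.157) with tight groups, from -0.22 to -0.18 against 0.07 to 0.15. Slc6a15, a transporter of neutral amino acids in neurons, differed by 0.31 (SE 0.068, adjusted p = 0.311). Stard5, a lipid transfer protein, differed by 0.34, and Tsen15, a subunit of the tRNA splicing endonuclease, by 0.32 on 1 probe set and 0.15 on the other. The kinase gene Cdkl1 differed by 0.31 and Hhipl1, a relative of the hedgehog-interacting protein, by 0.35. The Hhipl1 probe set and the Tsen15 probe set at 0.32 were of the dimmer class. The zinc finger genes Zfp941, Zfp330 and Zfp566 differed by 0.38, 0.35 and 0.32.

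Among the 4 named as lower, Arntl encodes BMAL1, the activator of the clock. Its values were 0.35, 0.08 and 0.14 with saline and -0.12, -0.08 and -0.28 with mephedrone. The groups did not overlap, and the difference was -0.35 (SE 0.070, adjusted p = 0.307). Coch, which encodes the extracellular protein cochlin, had values of 0.16, 0.16 and 0.34 with saline and -0.13, -0.11 and -0.17 with mephedrone, a difference of -0.35 (SE 0.144, adjusted p = 0.623). Klhl1, a kelch-like protein of neurons, differed by -0.38 (SE 0.181, adjusted p = 0.693), and its saline arrays spread from -0.05 to 0.40. Its unadjusted p by limma was 0.0622, above 0.05. The probe sets of Klhl1 and Srsy were of the dimmer class. Srsy is a Y-linked gene with many near-identical copies, measured by 19 probe sets with nearly the same values, so they count as 1 observation and the signal of the copies cannot be told apart. Its probe set with the smallest p had values of 0.06, 0.72 and 0.38 with saline and -0.06, -0.29 and -0.05 with mephedrone. The differences of the 19 ran from -0.55 to -0.33.

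**Figure D2:**
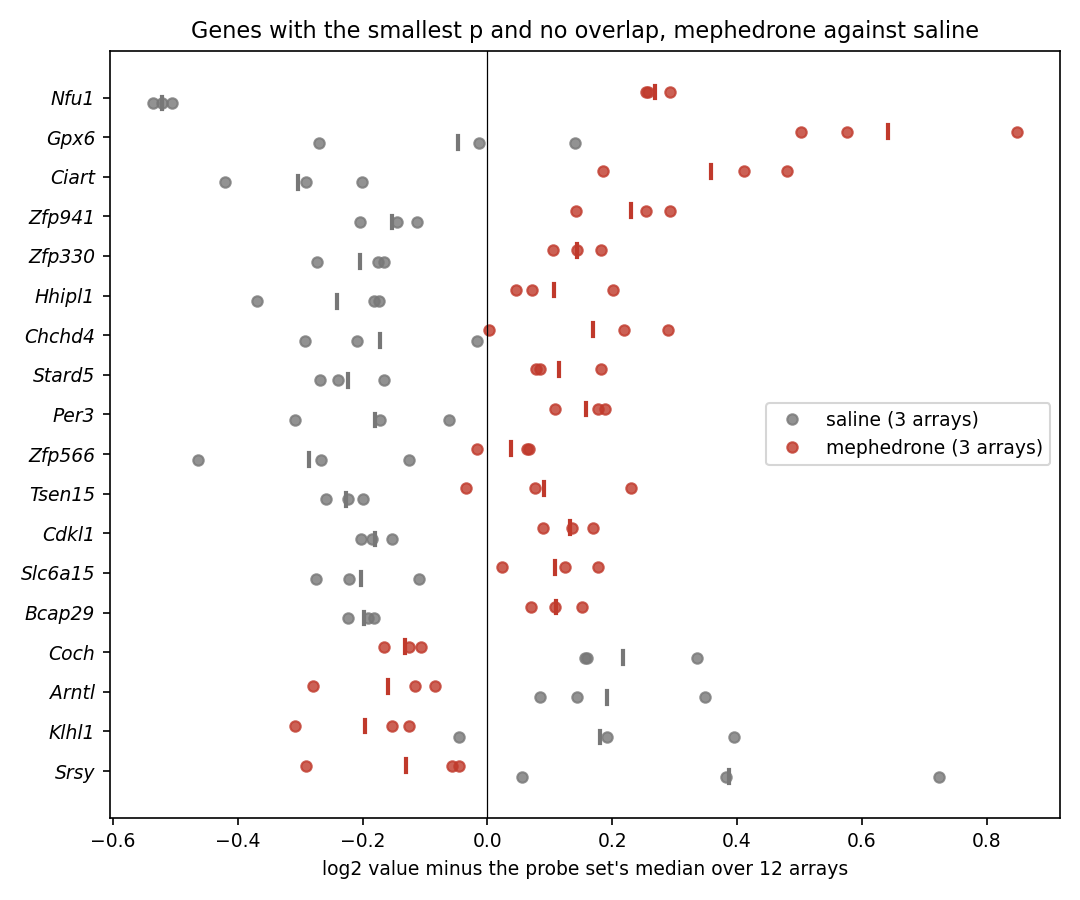
Centred log2 values of the 18 named genes in the 3 saline (grey) and 3 mephedrone (red) arrays, 1 point per array, with group means as vertical ticks; each gene is shown by its probe set with the smallest p. The 3 saline arrays of Nfu1 lie at -0.54 to -0.51, far from its mephedrone arrays at 0.26 to 0.29, while groups such as Chchd4 nearly touch.

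The clock is a feedback loop in which BMAL1 (Arntl) and CLOCK drive the period, cryptochrome, Ciart, Dbp and Nr1d genes through E-box elements, while PER, CRY and CIART proteins repress that activity. Proteins of the Nr1d genes (REV-ERB) repress Arntl through a shared element that ROR proteins activate. DBP, TEF and HLF act on D-box elements, which Per genes also carry. The promoters of 3 clock genes with large differences are printed because each holds an element of that loop: E-boxes in Ciart, D-boxes in Per3 and the ROR and REV-ERB element in Arntl. They come from RefSeq on GRCm38.p6, run from 250 bases before to 50 after a gene's start, are written on the strand of the gene, and have the matched letters in capitals.
Ciart, chr3:95882179-95882478, minus strand: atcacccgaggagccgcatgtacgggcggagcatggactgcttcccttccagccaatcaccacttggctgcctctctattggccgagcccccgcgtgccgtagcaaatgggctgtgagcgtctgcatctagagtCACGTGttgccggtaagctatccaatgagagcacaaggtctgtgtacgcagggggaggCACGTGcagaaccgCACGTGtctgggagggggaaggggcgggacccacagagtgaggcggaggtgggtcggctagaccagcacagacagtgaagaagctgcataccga
Per3, chr4:151044616-151044915, minus strand: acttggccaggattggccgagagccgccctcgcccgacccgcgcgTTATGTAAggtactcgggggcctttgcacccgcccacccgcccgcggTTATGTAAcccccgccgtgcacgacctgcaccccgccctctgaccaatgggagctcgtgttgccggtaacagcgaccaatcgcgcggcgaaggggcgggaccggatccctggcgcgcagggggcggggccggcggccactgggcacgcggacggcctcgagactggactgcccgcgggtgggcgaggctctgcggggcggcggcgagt
Arntl, chr7:113207261-113207560, plus strand: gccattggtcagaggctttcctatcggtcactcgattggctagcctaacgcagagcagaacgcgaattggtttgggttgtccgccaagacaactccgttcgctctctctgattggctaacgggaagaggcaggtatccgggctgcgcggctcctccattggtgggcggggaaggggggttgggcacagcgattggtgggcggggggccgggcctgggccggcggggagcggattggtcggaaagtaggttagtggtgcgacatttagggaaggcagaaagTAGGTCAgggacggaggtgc

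The letters searched, on both strands, were CACGTG for the E-box, TTATGTAA for the D-box, TAGGTCA for the ROR and REV-ERB element and TGACGTCA for the cAMP element, besides the serum response element. The Ciart promoter holds 3 E-boxes, which begin 116, 58 and 44 bases before the start. Per3 has 2 D-boxes, 205 and 158 bases before it. The Arntl promoter printed has its element at base 30 after the start, and a second Arntl promoter in the table, which begins 46 bases earlier, has none. Of 32851 promoters of the same length, 7.15% hold that E-box, 0.94% the D-box, 2.61% the ROR and REV-ERB element, 1.79% the cAMP element and 0.06% the serum response element. Promoters on chr18 were left out of these shares. Of 9 genes looked up 8 were matched. Hlf holds a cAMP element 9 bases before its start, while none of the searched letters are in the windows of Dbp, Nr1d2, Nfu1 or Coq3.

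Of the 19 clock genes measured, 14 were above 0 and 5 below, where 56% of all genes were above 0, with a median difference of 0.142 against 0.008 over all genes. At an unadjusted p under 0.05, 7 were higher and 1 lower. Over all genes 5.72% were so higher and 1.51% so lower. All mephedrone arrays lay above all saline arrays for 7 members and below for 3, where 9.99% and 4.74% of all genes did so. No member passed over all genes. The clock list, like the other lists, was chosen with earlier results of these data known, and it holds Ciart, Per3 and Arntl. Its counts therefore describe these arrays and are no test. On the reduced set the median was 0.107, with 6 higher and 1 lower at that p.

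Targets of the loop made up most of the higher genes. Dbp, a transcription factor driven by the clock, had values of -0.20, -0.09 and -0.17 with saline and 0.11, 0.09 and 0.14 with mephedrone, a difference of 0.26 (SE 0.063, adjusted p = 0.348). The related factors Hlf and Tef differed by 0.15 each, and for both of them the 3 mephedrone arrays lay above the 3 saline arrays. Nr1d2, which encodes REV-ERB beta, had values of -0.12, -0.13 and -0.25 with saline and 0.12, 0.07 and 0.05 with mephedrone, a difference of 0.25 (SE 0.054, adjusted p = 0.309). Its relative Nr1d1 differed by 0.11, with overlap. Bhlhe41, a repressor of the loop, differed by 0.33 (SE 0.10, adjusted p = 0.508), with saline replicate 1 at 0.02 inside the range of the mephedrone arrays. Bhlhe40, a close relative, differed by 0.18 without overlap.

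The other period genes, the cryptochromes and the remaining core members did not reach that p. Per2 differed by 0.21 (SE 0.126) and Per1 by 0.09 (SE 0.107). Their saline arrays were far apart, from -0.37 to 0.16 for Per2 and from -0.39 to 0.18 for Per1, and in both the mephedrone arrays fell within that range. Cry1 and Cry2, the cryptochromes, differed by 0.03 and 0.08, Clock by -0.04 and Rora by -0.07, all of them with adjusted p above 0.8. Nfil3, a repressor at D-boxes, differed by -0.08 (adjusted p = 0.780), with all mephedrone arrays below all saline arrays.

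**Figure D3:**
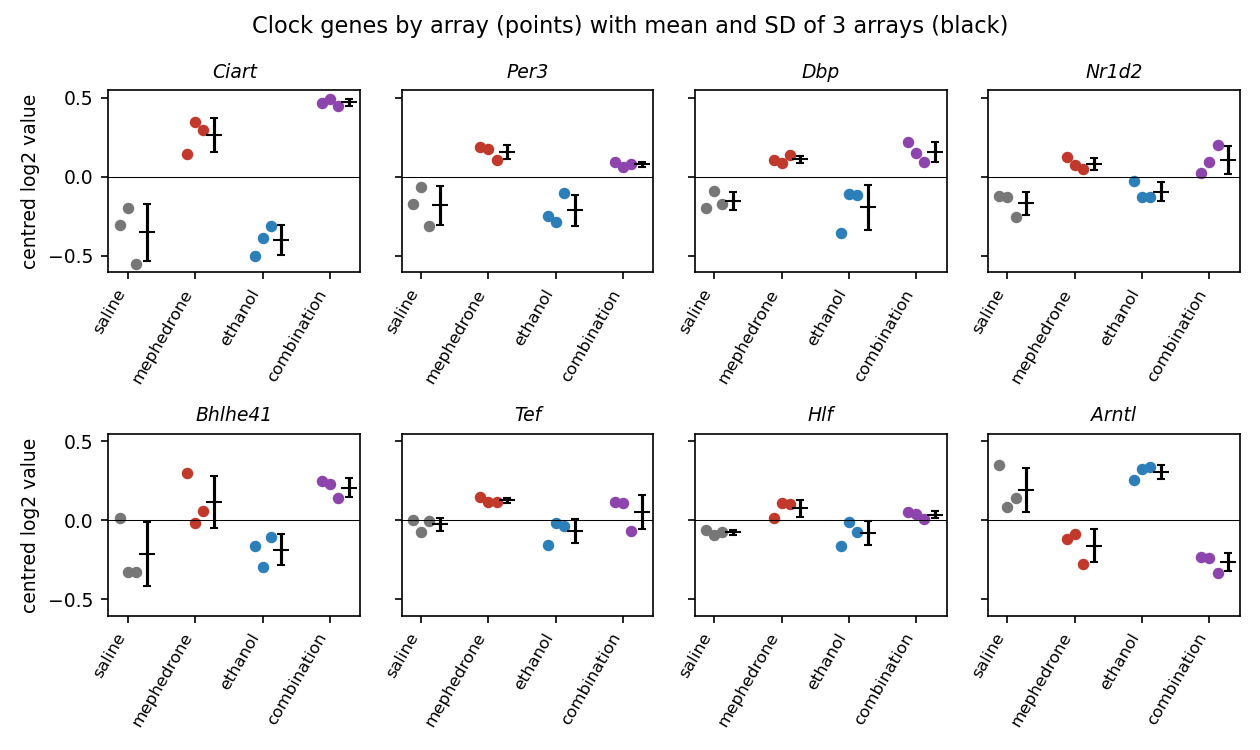
Centred log2 values of 8 clock genes in the 4 groups, 1 point per array, with the mean and SD of 3 arrays in black; Ciart is the mean of its 2 probe sets. The mephedrone and combination arrays lie above 0 for Ciart, from 0.14 upwards, and below 0 for Arntl, with saline and ethanol arrays on the other side.

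The arrays of ethanol and of the combination give a second comparison of mephedrone, given with ethanol in both arms, that shares no array with the first. There 7 probe sets passed as higher (0.0243%) and 3 as lower (0.0104%) by limma. Those calls depended on single arrays: 0 passed on those 6 arrays alone or after quantile normalization, and 0 without any 1 of 3 combination arrays, ethanol replicate 2 or 3, or mephedrone replicate 2. On all 12 arrays Ciart rose there by 0.84 and 0.90 on its 2 probe sets (adjusted p = 0.0206 and 0.0459), and Arntl fell by 0.57 (adjusted p = 0.0459). With 1 value per gene, all 14 genes named as higher and all 4 named as lower had the same sign in that comparison, 8 and 2 of them at an unadjusted p under 0.05. In that comparison 5.31% of all genes were higher and 4.41% lower at that p. Their median difference was 0.341 with mephedrone alone and 0.187 in the combination for the 14, and -0.363 and -0.414 for the 4. The genes were chosen by their values in the first comparison, which favours larger sizes there. Both comparisons also use 1 estimate of the spread over the 12 arrays. Choosing genes by a small p in the first therefore favours a small p in the second. The named probe set of Tsen15 differed there by -0.01.

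Among all genes at an unadjusted p under 0.05 with mephedrone alone, 905 of 1140 higher genes (79.4%) and 240 of 301 lower genes (79.7%) had the same sign in the combination against ethanol, compared with 59.6% of all 19938 genes. Across genes, which are not independent replicates and share these arrays, the 2 sets of differences had a Pearson r of 0.262 and a Spearman rho of 0.286. The test of the difference between both mephedrone effects called 0 probe sets (limma, smallest adjusted p 0.786), with 357 higher and 634 lower at an unadjusted p under 0.05, or 1.24% and 2.2% of 28853. With 1 value per gene, 6 of the 14 named as higher and 1 of the 4 named as lower were at that p in this test. Of all genes 3.54% were. Choosing genes by the first comparison favours such a difference. The named Nfu1 probe set differed by 0.789 with mephedrone alone and by 0.305 in the combination against ethanol. Comparisons with the same saline arrays can only be set side by side: Ciart, as the mean of its probe sets, differed from saline by 0.62 with mephedrone, -0.05 with ethanol and 0.82 with the combination, and Arntl by -0.35, 0.11 and -0.46. Other named genes differed from saline with ethanol as well. On the probe sets named, Nfu1 was higher by 0.376, Tsen15 by 0.275, Zfp566 by 0.206, Stard5 by 0.198 and Hhipl1 by 0.187. Among the genes named as higher, Gpx6 (-0.222) and Per3 (-0.032) lay below saline with ethanol.

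**Figure D4:**
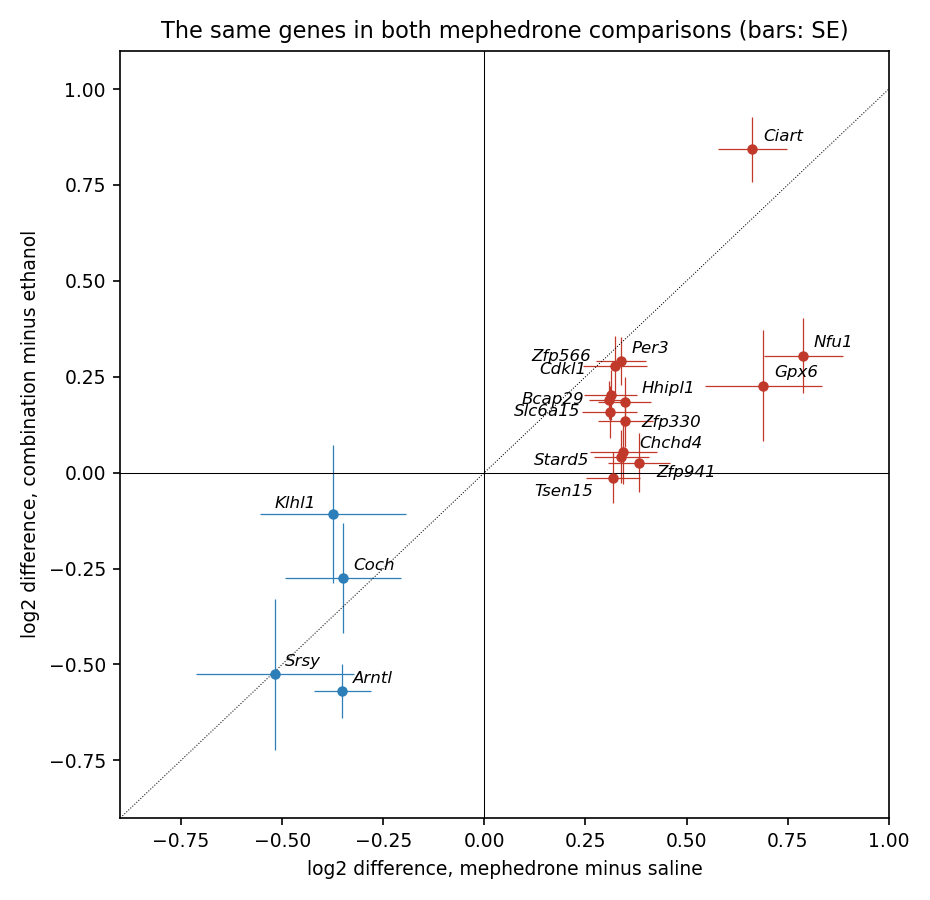
Log2 difference of the 18 named genes for mephedrone minus saline (x axis) and combination minus ethanol (y axis), each gene by its probe set with the smallest p in the first, with SE bars and a dotted line of equality. Ciart lies at 0.66 and 0.84, Arntl at -0.35 and -0.57, and most of the others lie nearer 0 on the y axis than on the x axis; Tsen15 is at -0.01 there.

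Genes for mitochondrial cofactors and enzyme assembly were also mostly higher. Their list was chosen with earlier results of these data known and holds Nfu1, so its counts describe these arrays and are no test. This list holds proteins that build iron-sulfur clusters, lipoic acid and ubiquinone (coenzyme Q) and that assemble succinate dehydrogenase. Of 28 measured, 24 were above 0 and 4 below, where 56% of all genes were above 0. The median was 0.046 against 0.008 over all genes. At an unadjusted p under 0.05, 7 were higher and 0 lower, where 5.72% and 1.51% of all genes were. For 9 members all mephedrone arrays lay above all saline arrays and for 2, Coq4 and Pdss2, all lay below, where 9.99% and 4.74% of all genes did so. On the reduced set, 21 were above 0 and 5 were higher at that p, and 4 without mephedrone replicate 3. The list means were -0.055, -0.075 and -0.053 with saline, 0.035, 0.019 and 0.006 with mephedrone and 0.017, -0.02 and -0.032 with ethanol. The ethanol arrays thus also lay above all saline arrays.

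Iron-sulfur and lipoic acid genes among the 7 were Nfu1 (0.47 as the mean of both probe sets), Lias, the lipoic acid synthase, with 0.20, Isca2 with 0.10 and Bola3 with 0.13. Ubiquinone genes were Coq3 and Coq2. Coq3, a methyltransferase, had values of -0.32, -0.14 and -0.19 with saline and 0.16, 0.06 and 0.02 with mephedrone, a difference of 0.29 (SE 0.057, adjusted p = 0.293). Coq2, which joins the ring to its side chain, differed by 0.23 (SE 0.088). Sdhaf4, an assembly factor of succinate dehydrogenase, had 0.25 (SE 0.043, adjusted p = 0.262), with saline arrays from -0.21 to -0.07 and mephedrone arrays from 0.04 to 0.14. Coq4 was the lowest member with -0.11 (SE 0.050, adjusted p = 0.688).

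The respiratory chain subunits that these cofactors serve did not share that split. Of 67 measured nuclear-encoded subunits, 35 were above 0 and 32 below, with a median of 0.008, the same as over all genes, and 7 were higher and 2 lower at an unadjusted p under 0.05, where 5.72% and 1.51% of all genes were. The count of 7 was 1 on the reduced set, and also 1 without saline replicate 1 or without mephedrone replicate 1, and 2 without saline replicate 2 and 4 without mephedrone replicate 3. The median on the reduced set was -0.016. Sdhd, a membrane subunit of succinate dehydrogenase, had the smallest p, with a difference of 0.24 (SE 0.068, adjusted p = 0.452), and Ndufb6 of complex I had 0.19. Sod2, the mitochondrial superoxide dismutase, differed by 0.14 (SE 0.037, adjusted p = 0.380) and Gpx1, a glutathione peroxidase, by -0.20 (SE 0.073, adjusted p = 0.598), in an antioxidant list with 12 of 22 above 0 (9 of 22 on the reduced set).

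Cytosolic ribosomal proteins were mostly lower by little: 40 of 54 were below 0, with a median of -0.045, and 6 were lower and 3 higher at an unadjusted p under 0.05. Over all genes 44% were below 0, 1.51% so lower and 5.72% so higher, so that the 3 higher are near the share of all genes. The reduced set had 41 below 0, and 4 were lower and 2 higher at that p. Leaving out single arrays of the 6 gave 2 (mephedrone replicate 2) to 7 lower (mephedrone replicate 3), with 3 lower without saline replicate 1 or 3. Rpl7a had values of 0.15, 0.16 and 0.14 with saline and -0.01, -0.03 and -0.06 with mephedrone, a difference of -0.18 (SE 0.040, adjusted p = 0.309), and Rps20 went the other way with 0.16. Ribosomal protein genes have many processed pseudogenes, so their probe sets can share signal with copies.

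Genes responsive to glucocorticoids, the stress hormones, had a median of 0.078, with 14 of 19 above 0 and 5 higher and 0 lower at an unadjusted p under 0.05. Over all genes 56% were above 0, 5.72% so higher and 1.51% so lower. All mephedrone arrays lay above all saline arrays for 5 members and below for 2, where 9.99% and 4.74% of all genes did so. Hif3a, a hypoxia-inducible factor subunit, had values of -0.08, -0.08 and -0.09 with saline and 0.02, 0.10 and 0.04 with mephedrone, a difference of 0.14 (SE 0.034, adjusted p = 0.348). Fam107a differed by 0.18, Tsc22d3, which encodes the glucocorticoid-induced leucine zipper, by 0.19, Mt2, a metallothionein, by 0.15, and the sulfotransferase Sult1a1 by 0.16. Other defining members differed less, Fkbp5 by 0.05, Sgk1 by 0.15 (SE 0.123) and Mt1 by -0.04. On the reduced set 3 were higher at that p, as without saline replicate 3 or without mephedrone replicate 1, and 2 were without saline replicate 1.

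Rbm3 and Cirbp, RNA-binding proteins known to be induced by mild cold, were higher. Rbm3 had values, as the mean of 3 probe sets, of -0.28, -0.13 and -0.19 with saline and 0.10, 0.08 and 0.07 with mephedrone. The groups did not overlap on any of the probe sets, whose differences were 0.30, 0.28 and 0.28 (adjusted p = 0.340 to 0.372). These probe sets had nearly the same values in every array, so they count as 1 observation. In the combination against ethanol the same probe sets rose by 0.54, 0.50 and 0.51 (adjusted p = 0.0459 for each). They are among the calls of that comparison that depended on single arrays. Cirbp differed by 0.15 (SE 0.077, adjusted p = 0.718) with mephedrone alone.

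Dopamine receptors are of interest because the title of the series names D3 receptors. Drd3 had values of -0.05, -0.39 and -0.59 with saline and 0.05, -0.31 and 0.25 with mephedrone. The groups overlapped, and the difference of 0.34 (SE 0.255, adjusted p = 0.853) was within their spread. In the combination against ethanol it was -0.54 (adjusted p = 0.511), where combination replicate 3 had a value of -1.05. The test of the difference between both effects gave an unadjusted p of 0.0326 by limma and did not pass (adjusted p = 1.0). The other receptors differed by 0.06 for Drd1, -0.06 for Drd2, -0.03 for Drd4 and -0.02 for Drd5, none of them at an unadjusted p under 0.05. The median of the 5 receptors was -0.022, and 0.018 on the reduced set.

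Around the synapse of dopamine, 10 of 16 genes for monoamine synthesis, transport and breakdown were above 0, with a median of 0.018, and 1 was higher at an unadjusted p under 0.05, a share near the 5.72% of all genes. None, 0 of 16, were on the reduced set. The 1 was Pts, an enzyme of the tetrahydrobiopterin cofactor, with 0.15 (SE 0.053, adjusted p = 0.583). Ddc, the decarboxylase that makes dopamine and serotonin, differed by 0.19 (SE 0.086) without overlap, and Th, tyrosine hydroxylase, by 0.31 (SE 0.203) with saline arrays from -0.46 to 0.21. Of 17 genes of dopamine and cAMP signalling in striatal neurons, 8 were above 0 and 9 below, with a median of -0.001, and Arpp19, a phosphatase regulator, was the 1 at that p with 0.16, and 0 were on the reduced set. Of 14 serotonin receptors 0 were at that p in either direction, and 1 was higher on the reduced set. Htr1f came nearest, with 0.14 (SE 0.065, adjusted p = 0.689).

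Neuropeptides of the projection neurons were next. Pdyn, which encodes dynorphin, had values of 0.01, -0.26 and -0.21 with saline and 0.20, -0.01 and 0.15 with mephedrone, so that 1 saline array lay above the lowest mephedrone array. Its difference was 0.26 (SE 0.081, adjusted p = 0.506). Tac1, the substance P gene, had -0.30, -0.20 and -0.06 against 0.10, 0.03 and 0.09, a difference of 0.26 (SE 0.114, adjusted p = 0.679). Penk, the enkephalin gene of D2 neurons, differed by 0.05 (SE 0.057). The kappa and mu opioid receptors, Oprk1 and Oprm1, differed by 0.26 (SE 0.124) and 0.22 (SE 0.122). In the list of 18 neuropeptides and opioid receptors 12 were above 0, with a median of 0.045, and Pdyn and Tac1 were the 2 at an unadjusted p under 0.05. Of 8 markers of D1 neurons 5 were above 0, where 56% of all genes were, and 3 were higher at that p (Pdyn, Tac1 and Sfxn1), where 5.72% of all genes were. Drd1 itself was at 0.06. The 3 became 1 without saline replicate 1, mephedrone replicate 1 or mephedrone replicate 3. On the reduced set 0 members of either list were at that p. In the combination against ethanol Pdyn differed by 0.07 and Tac1 by 0.04.

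Receptors of fast transmission differed by small amounts. Gria2 and Gria1, AMPA receptor subunits, differed by 0.14 (SE 0.042) and 0.12 (SE 0.050) without overlap, and Cacng2, the AMPA receptor auxiliary subunit stargazin, by -0.16 (SE 0.057). Of 24 ionotropic glutamate receptor genes 15 were above 0, with 2 higher and 1 lower at an unadjusted p under 0.05, and of 12 GABA-A receptor genes 9 were above 0, with 1 higher, Gabrb1 at 0.16 (SE 0.074). Over all genes 56% were above 0, 5.72% so higher and 1.51% so lower, so the higher counts of both lists are near the share of all genes. Among the arrays of the reduced set 15 of the glutamate receptor genes were above 0, with 2 higher and 0 lower at that p, and 7 of the GABA-A receptor genes, with 0 higher. Among 22 genes of synaptic vesicle release 1 was higher at that p, again near the share of all genes. It was Sv2c, a vesicle protein of the basal ganglia. Its values were -0.10, -0.02 and -0.01 with saline and 0.26, 0.15 and 0.21 with mephedrone, a difference of 0.25 (SE 0.071, adjusted p = 0.455). The reduced set had 2 higher.

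Immediate early genes, which neuronal activity induces within minutes, were 10 above and 17 below 0 of 27, with a median of -0.044. At an unadjusted p under 0.05, 1 was higher and 1 lower, and on the reduced set 7 were above 0, with 0 higher and 1 lower. Over all genes on the full set 56% were above 0, and 5.72% were higher and 1.51% lower at that p. The counts of 1 among 27 are thus near the shares of all genes. Egr3, a zinc finger factor, had values of 0.21, 0.13 and 0.03 with saline and -0.21, -0.01 and -0.15 with mephedrone, a difference of -0.24 (SE 0.070, adjusted p = 0.444), and Jun differed by 0.13 (SE 0.060, adjusted p = 0.685). Several larger differences came with 1 saline array far from the others. Nr4a2, the highest of the list, had -0.77, 0.00 and -0.09 with saline and -0.02, 0.40 and 0.00 with mephedrone (difference 0.41, SE 0.383). Nr4a1 had 0.83, -0.07 and 0.07 with saline and -0.30, -0.23 and 0.16 with mephedrone (difference -0.40, SE 0.223), and Arc had 0.71 in saline replicate 1 against -0.12 and 0.18 in the other saline arrays (difference -0.37, SE 0.170). Egr2 was at 0.89 in saline replicate 1 and at most 0.00 in the other saline arrays. Fos differed by 0.03 (SE 0.104) and Fosb by -0.01 (SE 0.087). The list mean was 0.22 in saline replicate 1 and between -0.09 and 0.04 in the other 5 arrays. Without saline replicate 1 the median was 0.005, with 14 of 27 above 0. The count lower at that p was 6 without saline replicate 2, 4 without mephedrone replicate 3 and 2 without saline replicate 3. Of 15 genes of ERK feedback, which the same signals induce, 6 were above 0, with a median of -0.009, and Etv5 was the 1 lower at that p with -0.21 (SE 0.083, adjusted p = 0.641). Without saline replicate 1, 11 of the 15 were above 0, with a median of 0.052 and 0 lower at that p. With the reduced set 4 were above 0 and 0 were lower at that p, and 0 were lower without saline replicate 2 or without mephedrone replicate 1 or 3.

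Thyroid hormone genes held members in both directions. Dio2, the deiodinase that activates the hormone in glia, had values of 0.18, 0.05 and 0.03 with saline and -0.14, -0.09 and -0.11 with mephedrone, a difference of -0.20 (SE 0.064, adjusted p = 0.533). Trhr2, a receptor of thyrotropin-releasing hormone, differed by 0.26 (SE 0.062, adjusted p = 0.348). Of the 13 measured, 5 were above 0, and 7 on the reduced set. Over all genes on the full set 56% were above 0, and 5.72% were higher and 1.51% lower at an unadjusted p under 0.05. For sterol and fatty acid synthesis 19 of 25 were above 0, with a median of 0.028 and 0 at an unadjusted p under 0.05, and 16 were above 0 on the reduced set. In the list for heat shock and the unfolded protein response 14 of 23 were above 0, and Hsph1, a chaperone, was the 1 at that p with 0.10 (SE 0.044). That list's median was 0.028, and -0.025 on the reduced set, where 1 was lower and 0 were higher at that p. Of 22 inflammatory and interferon genes 14 were above 0, with a median of 0.006, and Ifit1 was the 1 lower with -0.08 (SE 0.032), with 0 lower on the reduced set.

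Markers of glia and vessels were compared as well. In bulk tissue, fewer cells of a type and less RNA per cell cannot be told apart. All 12 oligodendrocyte markers were below 0, with a median of -0.169, against 8776 of 19938 genes (44%) below 0. Only 1 was lower at an unadjusted p under 0.05, Mobp, a myelin protein, with values of 0.06, 0.01 and 0.10 with saline and -0.06, -0.14 and -0.24 with mephedrone (difference -0.20, SE 0.091, adjusted p = 0.685). Over all genes 1.51% were lower and 5.72% higher at that p. The list means were 0.00, 0.06 and 0.16 with saline and 0.03, -0.13 and -0.16 with mephedrone, so mephedrone replicate 1 lay within the saline range. After quantile normalization 7 of the 12 were lower at that p. On the reduced set all 12 were below 0, with a median of -0.237 and 1 lower at that p, and the count was 0 without saline replicate 2 or 3 or without mephedrone replicate 2 or 3. In the combination against ethanol all 12 were above 0, where 49.6% of all genes were, with a median of 0.168, and combination replicate 3 had a list mean of 0.54. Microglial markers were below 0 for 10 of 12, with a median of -0.053 and 0 at that p, and for 10 of 12 on the reduced set, with a median of -0.069. Of 12 endothelial markers 7 were above 0, and the 2 at that p, Cldn5, a tight junction protein, and Tek, the angiopoietin receptor, differed by -0.18 (SE 0.062) and 0.09 (SE 0.036). The reduced set had 1 lower and 0 higher. For astrocytes 6 of 12 were above 0, with a median of -0.003, and 4 of 12 on the reduced set, with a median of -0.045.

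Markers of neighbouring tissue followed single arrays. Choroid plexus markers were below 0 for 9 of 10, with a median of -0.191 that became 0.124 without saline replicate 2 and -0.042 on the reduced set. Ttr, transthyretin, had values of -0.05, 2.25 and -0.08 with saline and 1.799, -0.69 and -0.59 with mephedrone. Cortical excitatory markers were above 0 for 11 of 12, with a median of 0.083 and 0 at an unadjusted p under 0.05, and the median was -0.042 without saline replicate 1, -0.001 without mephedrone replicate 2 and 0.2 on the reduced set. Slc17a7, the vesicular glutamate transporter of cortical neurons, had -0.75, 0.82 and -0.04 with saline and -0.10, 0.61 and 0.02 with mephedrone. For these lists the spread within a group was wider than the difference between the groups. Their part in the differences of other genes was not tested. The reduced set leaves out the arrays high for choroid plexus and does not balance the cortical markers.

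**Figure D5:**
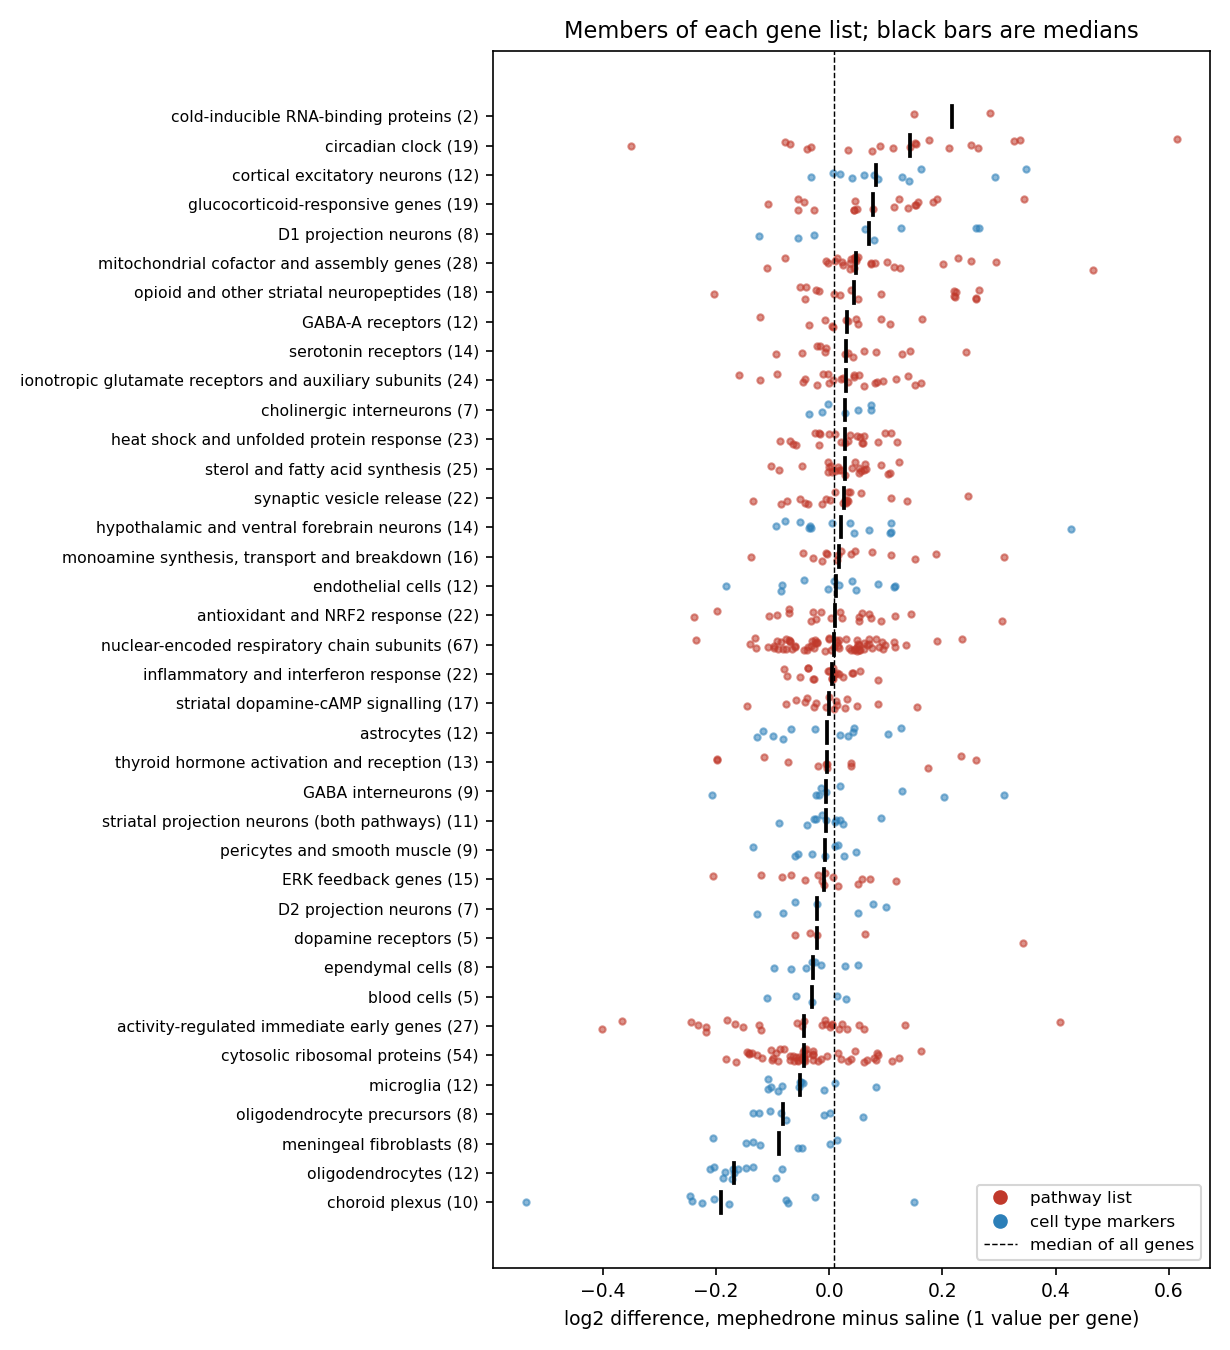
Log2 difference (mephedrone minus saline) of every measured member of the 38 gene lists, 1 point per gene, with the number measured beside each name, list medians as black bars and the median of all genes (0.008) as a dashed line. Clock genes have a median of 0.142 with Arntl alone near -0.35, while all 12 oligodendrocyte markers lie below 0.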

How the data were processed

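RNA of the anterior striatum was measured on 12 Affymetrix whole-transcript arrays, of which 3 of mephedrone and 3 of saline are compared here. The authors deposited log2 values. Per the submitters' processing notes they used RMA, which corrects background, normalises by quantiles and summarises probes, with the build mm8, and per the series design text GeneSpring GX 7.3.1. Centring on the median of each probe set over 12 arrays is not described there and was read from the deposited log2 values, whose medians are 0 within 7.02e-07. Because of it, signal over background and depth are unknown, and the number of arrays limits the precision. The 2 signal classes (log2 signals of 8 to 16, and of 4 to 8) were read from the step of the single-precision values.

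A model with 1 mean per group was fitted across the 12 arrays by limma 3.58.1 (lmFit and eBayes) in R 4.3.3, with 8 residual and 3.11 prior degrees of freedom, two-sided, and Benjamini-Hochberg adjustment over 28853 probe sets (over 19938 genes where a gene has 1 value; the threshold is 0.05). The procedure was tested on simulated data. An exact permutation test of 3 against 3 arrays cannot go below p = 0.1, so none is given. Symbols came from the platform annotation, where 1621 probe sets have several symbols and 5443 none. Up to 14 genes a direction were named in order of unadjusted p, from probe sets whose groups did not overlap and differed by at least 0.3. Receptor families, predicted genes and small RNAs were counted, not named. Further named were the 2 members of each list with the smallest p, members that define a list, and Drd3, Rbm3 and Cirbp. The genes compared, the 21 pathway and 17 cell type lists and the naming rule were chosen with earlier results of these data known. Alternatives were other array sets, a replicate block, 2 normalizations, array weights, robust variances, 2 feature sets and leaving out each array.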

Additional observations from a re-analysis of the deposited data

How the results depend on the processing

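For mephedrone against saline, the count of 0 probe sets past the threshold became 1 with the 6 arrays compared alone, 3 after quantile normalization, 8 with array weights, 4 when only probe sets with a single symbol were tested, and 14 without ethanol replicate 1 and combination replicate 3. It ranged from 0 to 9 when each array was left out in turn. For the combination against ethanol the count of 10 became 0 with the 6 arrays alone, 0 after quantile normalization, 6 with each array centred on its median, 5 with 1 value per gene, 4 without ethanol replicate 1 and combination replicate 3, and 1 without saline replicate 2 and mephedrone replicate 1, but 13 with array weights, 10 with robust variances and 9 when only probe sets with a single symbol were tested. It ranged from 0 to 17 when each array was left out, so those 10 calls depend on single arrays. The cause was not tested. The count for the difference between both effects was 0 under each of the 21 alternatives that could be fitted, since the 6 arrays alone cannot give it.

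Groups share replicate numbers. Deviations from the group means of same-numbered saline and mephedrone arrays had correlations of -0.02, 0.15 and 0.18. With so few pairs and no batch in the labels, these values cannot tell whether same-numbered arrays were handled together. With a replicate block 0 probe sets passed for mephedrone against saline and 0 for the combination against ethanol.

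The 18 named genes kept their direction under all 22 alternatives, and passed the threshold in 15 combinations of gene and setting, against 381 in which they did not. The naming rule fixed most of that sameness of direction, because it took only genes whose groups did not overlap. List medians moved by more than the spread between arrays in 46 combinations of list and setting and by less in 714.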

Other observations

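Values in this part belong to genes and probe sets chosen after their values were seen, none of which passed the threshold for mephedrone against saline. Mid1, a ubiquitin ligase gene, had the largest difference of all genes, 1.01 (SE 0.474, adjusted p = 0.698 by limma with 1 value per gene), with wide spread among the mephedrone arrays (SD 0.991). Syt10, a synaptotagmin, had saline values of -0.06, -0.43 and -0.40 and a mephedrone mean of 0.24 ± 0.095 (SD of 3 arrays), a difference of 0.54 (SE 0.145, adjusted p = 0.409). It differed by 0.26 in the combination against ethanol. Pilra, an immune receptor gene, differed by 0.51 (SE 0.161, adjusted p = 0.533) and by 0.60 in the combination against ethanol.

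The transcript A530040E14Rik, of unnamed function, was lower by more than its spread on the mean of 5 probe sets. Its saline values were 0.22, 0.21 and 0.26 and its mephedrone mean was -0.14 ± 0.058 (SD of 3 arrays), with a difference of -0.37 (SE 0.051, adjusted p = 0.145), and -0.28 in the combination against ethanol.

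Probe set 10490203, which has no single symbol, had values of -0.02, 0.02 and -0.07 with saline and -0.74, -0.65 and -0.51 with mephedrone, while the ethanol and combination arrays lay between -0.25 and 0.28. The difference was -0.61 (SE 0.117, adjusted p = 0.277). Of the 8 probe sets higher by at least 1.5-fold at an unadjusted p under 0.05, 4 without a single symbol had nearly the same values in every array. They rest on saline replicate 2, at about -1.58 against -0.36 and -0.14 in the other saline arrays.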
